A study of Caenorhabditis elegans with 21 samples.

Results

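Gene expression was compared between *daf-16;pmk-1(D327E)* and *daf-16;pmk-1(-)* double mutants of *C. elegans*, with 4 mRNA-seq libraries on each side. The members were chosen by genotype from the sample labels and are 8 of the 21 libraries of the study, 2 each of *daf-16(mgDf50);pmk-1(D327E)*, *daf-16(m26);pmk-1(D327E)*, *daf-16(mgDf50);pmk-1(-)* and *daf-16(m26);pmk-1(-)*. The comparison asks what distinguishes a caspase-resistant p38 kinase from no kinase when the FOXO factor DAF-16 is missing or impaired. The remaining 13 libraries are 2 of each *daf-16* single mutant, mgDf50 and m26, and 3 each of *pmk-1(D327E)*, *pmk-1(-)* and wild type. In *pmk-1(D327E)*, allele miy7, the aspartate of the CED-3 caspase cleavage site is replaced by glutamate. The null mutant *pmk-1(-)* carries allele km25. Of the *daf-16* alleles, mgDf50 is a deletion and m26 alters a splice site, so a transcript remains in m26 animals. RNA came from whole synchronized animals, which the labels give as late L4 animals fed for 48 h at 20 °C once they had spent 24 h in M9 buffer, whereas the study's methods call them young adults. All 8 double mutant libraries carry a *daf-16* mutation, and each genotype is a single strain. Any other difference between those strains cannot be told apart from the genotype, and fewer cells of a type cannot be told apart from less RNA per cell.

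PMK-1 is a p38 mitogen-activated protein kinase that acts below the adaptor TIR-1 and the kinases NSY-1 and SEK-1. Through the transcription factor ATF-7 it keeps up the basal and pathogen-induced expression of intestinal immune genes, many of which encode secreted CUB-like proteins, C-type lectins and lysozymes. DAF-16 is the FOXO factor held in check by insulin-like signalling, and several genes known from DAF-16 screens, the dod (downstream of *daf-16*) genes, are also intestinal immune genes.

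Levels are given in TPM, the deposited transcript abundance, which is scaled for gene length and library total. A single limma model of log2(TPM + 1) covered all 9 genotypes and the 12843 genes whose mean reached 1 TPM, and a gene was called at a Benjamini-Hochberg adjusted p below 0.1. Because the added 1 shrinks the fold changes of weakly expressed genes, ratios of mean TPM are given beside some of them, for genes with no library listed at 0. The libraries sum to the same total, with 17721 to 18519 genes above 0, and TPM keeps no depth, so read depth is unknown. Correlations between the 8 libraries were at least 0.9617. The series calls the libraries biological replicates and does not say whether they came from separate cultures, so p-values measure the spread between these libraries. Replicates 1 and 2 deviated from their genotype means in the same way in all 4 double mutants, with correlations of 0.489 to 0.699. Counts of calls from a fit with the replicate number as a block are therefore given where they moved by over 1.5 times and for several lists. That fit covers all genotypes unless the 8 libraries alone are named.

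The mutated genes were examined first. In the D327E double mutants *pmk-1* was at 14.1 and 15.6 TPM with mgDf50 and at 14.3 and 12.7 TPM with m26, against 12.63, 12.72, 11.398 and 13.88 TPM in the null double mutants. The ranges overlap, and the log2 fold change was 0.15 (standard error 0.09, limma, adjusted p = 1), so the *pmk-1* transcript was still present in the null and the level does not separate the genotypes. The *daf-16* level was 7.26 and 7.78 TPM in *daf-16(mgDf50);pmk-1(D327E)*, against 6.12 and 7.35 TPM in *daf-16(mgDf50);pmk-1(-)*. It was 55.01 and 58.13 TPM in *daf-16(m26);pmk-1(D327E)*, against 58.996 and 61.83 TPM in *daf-16(m26);pmk-1(-)*, while wild type had 44.2, 46.4 and 44.2 TPM. All 8 libraries thus carry the *daf-16* level of their labelled allele.

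Without functional *daf-16*, most of the largest differences between the cleavage-resistant and the null kinase were rises of immune effector genes such as *irg-5*, *irg-4*, *dod-24* and *lys-2*. Over both alleles 228 of 12843 genes were called (1.78%), 185 higher (1.44%) and 43 lower (0.335%) in the D327E double mutants. The median log2 fold change was 1.13 over the genes called higher and -0.80 over those called lower, against -0.013 over all genes tested. Rises were the larger changes, with 112 genes at a log2 fold change of 1 or more and 12 genes at -1 or less. For 199 of the 228 genes (87.3%) the 4 D327E and 4 null libraries did not overlap, against 600 of all genes tested (4.67%). Among all genes tested 401 (3.12%) had every D327E library above every null library, and 199 (1.55%) had every D327E library below. At an unadjusted p below 0.05 there were 813 genes. With the replicate block 491 genes were called, 397 higher and 94 lower, and all of the 228 were among them. A fit of the 8 libraries alone with the block called 775 genes, 575 higher and 200 lower.

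**Figure D1:**
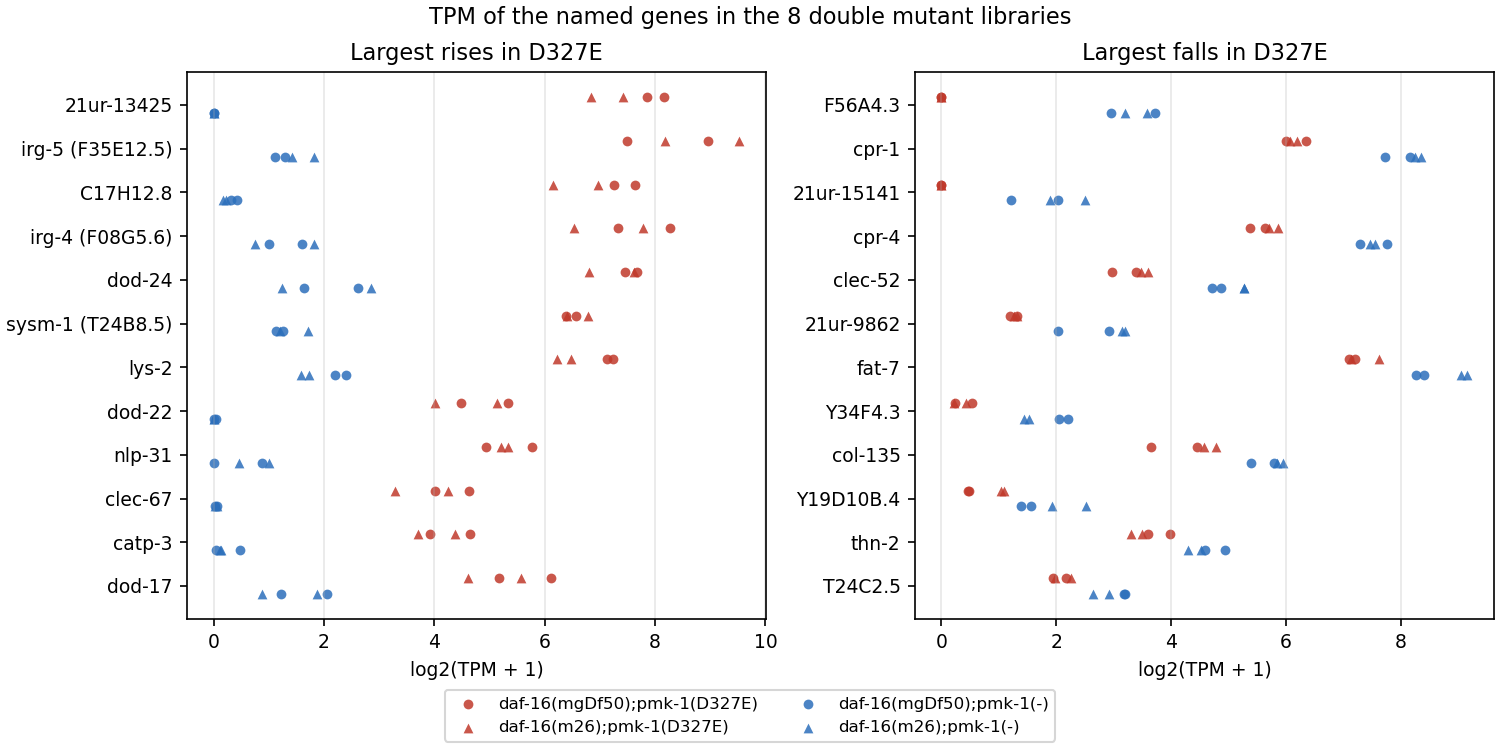
Levels as log2(TPM + 1) of the 12 largest rises (left) and the 12 largest falls (right) among genes whose D327E and null libraries did not overlap. Each point is 1 of the 8 double mutant libraries, red for D327E and blue for null, circles for mgDf50 and triangles for m26. In every row the red points lie to one side of the blue points, by the widest gaps for *21ur-13425*, *irg-5* and C17H12.8. The locus *21ur-13425* lies inside C17H12.8, and their reads cannot be told apart.

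The CUB-like genes, whose products are secreted proteins of the intestinal response to bacteria, rose as a group. Of 19 members tested, 15 rose and none fell, the median log2 fold change was 2.92, and all 19 fold changes were positive. Among them *irg-4* (F08G5.6 in the table) and its relative C17H12.8, both on chromosome IV, have forward RT-qPCR primers in the study that differ at 2 of 22 bases, C3T and G9T counted from the 5′ end of the *irg-4* primer. These designed primers are shown, 5′ to 3′ with the differing bases in capitals, because reads of such relatives could be split between copies.
irg-4 forward: gtCccactGtcacaagctcaac
C17H12.8 forward: gtTccactTtcacaagctcaac
How reads matching both genes were counted is not given in the sources used here.

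The *irg-4* level was 307 and 159.8 TPM in *daf-16(mgDf50);pmk-1(D327E)* and 218 and 91.3 TPM in *daf-16(m26);pmk-1(D327E)*. In the null double mutants it was 2.04 and 1.00 TPM with mgDf50 and 2.53 and 0.693 TPM with m26. Mean TPM was thus 124-fold higher with D327E, and the log2 fold change was 6.18 (standard error 0.37, limma, adjusted p = 1.12e-07). C17H12.8 had 197 and 152 TPM with mgDf50 and 124 and 70.1 TPM with m26 in the D327E double mutants, against 0.341, 0.248, 0.164 and 0.125 TPM in the null double mutants. Every null library was below 1 TPM, and the means differed 619-fold. The log2 fold change of TPM + 1 was 6.72 (standard error 0.45, limma, adjusted p = 3.65e-07). For both genes, replicate 1 was above replicate 2 in each of the 4 double mutant genotypes.

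A further pair of infection response genes, the CUB-like *irg-5* and *sysm-1*, which encodes a ShK-like secreted peptide, are commonly used as readouts of p38 activity in the intestine. The *irg-5* (F35E12.5) level was 495 and 179 TPM in *daf-16(mgDf50);pmk-1(D327E)* and 738 and 287 TPM in *daf-16(m26);pmk-1(D327E)*, against 1.47, 1.17, 2.55 and 1.68 TPM in the null double mutants. Its D327E values varied widely and all stayed far above the null values, and the means differed 248-fold. The log2 fold change of TPM + 1 was 7.12 (standard error 0.39, limma, adjusted p = 7.75e-08). The reporter gene *sysm-1* (T24B8.5) was at 94.2, 82.7, 109 and 83.9 TPM in the D327E double mutants, against 1.19, 1.41, 2.29 and 1.31 TPM in the null double mutants. It was the gene with the lowest adjusted p of those named, at 5.21 on the log2 scale (standard error 0.17, limma, adjusted p = 1.08e-10) and a 59.7-fold higher mean.

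The CUB-like dod genes rose as well. For *dod-24* the D327E double mutants had 202 and 173 TPM with mgDf50 and 196 and 110.1 TPM with m26, against 5.11, 2.12, 6.21 and 1.36 TPM in the null double mutants, which is a 46.04-fold higher mean and by limma 5.297 on the log2 scale (standard error 0.41, adjusted p = 1.5e-06). The level of *dod-17* was 68.4, 34.9, 46.3 and 23.5 TPM, against 3.16, 1.33, 2.65 and 0.829 TPM (log2 fold change 3.86, standard error 0.55, limma, adjusted p = 0.000881). From the same gene cluster, *dod-22* was at 39.4, 21.29, 34.05 and 15.2 TPM in the D327E double mutants and listed at 0 in 3 of the 4 null libraries, with 0.0267 TPM in the other (limma, adjusted p = 5.73e-06). The other CUB-like members that rose, C17H12.6 apart, whose null libraries were mostly listed at 0, had log2 fold changes between 0.75 (F35E12.8) and 3.17 (F55G11.8), and F35E12.9, F35E12.6, K08D8.6 and F35E12.10 had 0.93, 0.67, 0.55 and 0.27 without passing the test. The replicate block raised the rises to 18 of the 19.

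Antimicrobial peptide genes of the epidermis, the nlp and cnc families, included further rises. Of 13 tested, 6 rose, none fell, 12 fold changes were positive and the median log2 fold change was 1.01. The level of *nlp-29*, a peptide gene known for its induction by fungal infection and wounding, was 62.2, 36.8, 44.8 and 35.8 TPM in the D327E double mutants, against 6.56, 2.05, 3.09 and 2.51 TPM in the null double mutants (log2 fold change 3.39, standard error 0.44, limma, adjusted p = 0.000353). From the same cluster, *nlp-31* was at 53.5, 29.8, 39.5 and 36.03 TPM, against 0.844, 0, 0.376 and 1.00 TPM (limma, adjusted p = 3.19e-07). The caenacin *cnc-4* was at 9.78, 5.47, 5.69 and 4.32 TPM and was listed at 0 in 3 of the 4 null libraries, with 0.137 TPM in the other (limma, adjusted p = 4.32e-07). None of these groups overlapped. The other members *nlp-30*, *nlp-34* and *cnc-3* rose too. The 7 that did not pass the test were *nlp-33*, *cnc-8*, *nlp-28*, *cnc-10*, *nlp-24* and *nlp-27*, with log2 fold changes of 1.33 to 0.12, and *nlp-26*, whose log2 fold change was -0.79. The replicate block gave 8 rises among the 13.

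Lysozymes cleave bacterial cell walls, and the 9 tested did not move one way. The largest change was that of *lys-2*, at 138, 149, 73.9 and 87.7 TPM in the D327E double mutants against 4.25, 3.60, 2.01 and 2.30 TPM in the null double mutants, 36.9-fold by the means (log2 fold change 4.79, standard error 0.33, limma, adjusted p = 4.32e-07). Its neighbour *lys-1*, which was far more abundant than *lys-2* in the null, was at 509, 468, 405 and 381 TPM against 202, 145, 155 and 145 TPM (log2 fold change 1.45, standard error 0.22, limma, adjusted p = 0.00145). Both groups were separate, although *lys-1* differed by only 2.73-fold. A smaller rise was seen for *lys-8* (log2 fold change 0.78, limma, adjusted p = 0.00872), and *lys-5* fell by 0.87 on the log2 scale at levels of 0.144 to 1.29 TPM in D327E and 1.81 to 2.38 TPM in null double mutants (limma, adjusted p = 0.08). The call of *lys-5* was lost without any 1 of 7 libraries. The remaining 5 did not pass, and *lys-4* and *lys-6* had log2 fold changes of -1.19 and -0.90. In the fit with the replicate block 3 lysozymes rose and 3 fell.

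C-type lectins, carbohydrate-binding secreted proteins, mostly did not pass the test. Of 79 tested 12 rose and 2 fell, a share of 17.7% beside 1.78% of all genes tested, and the median of -0.03 lay at that of all genes. The level of *clec-67* was 23.6, 15.1, 18 and 8.77 TPM in the D327E double mutants and below 0.1 TPM in every null library, 504-fold by the means (log2 fold change 3.996, standard error 0.40, limma, adjusted p = 2.26e-05). For *clec-85* it was 44.66, 42.40, 29.005 and 28.39 TPM against 4.40, 2.93, 2.95 and 3.22 TPM (log2 fold change 3.07, limma, adjusted p = 4.32e-07). The more abundant *clec-47* had 130.4, 103, 128 and 69.6 TPM, against 28.2, 13.7, 14.7 and 6.57 TPM (log2 fold change 2.81, standard error 0.51, limma, adjusted p = 0.00805). The lectin *clec-52* went the other way, with 6.83, 9.53, 11.07 and 10.1003 TPM in the D327E double mutants against 28.3, 25.3, 37.6 and 37.5 TPM in the null double mutants (log2 fold change -1.67, standard error 0.30, limma, adjusted p = 0.00597). The replicate block gave 14 rises and 6 falls among the 79, and in the 8 libraries alone it gave 17 rises and 9 falls.

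**Figure D2:**
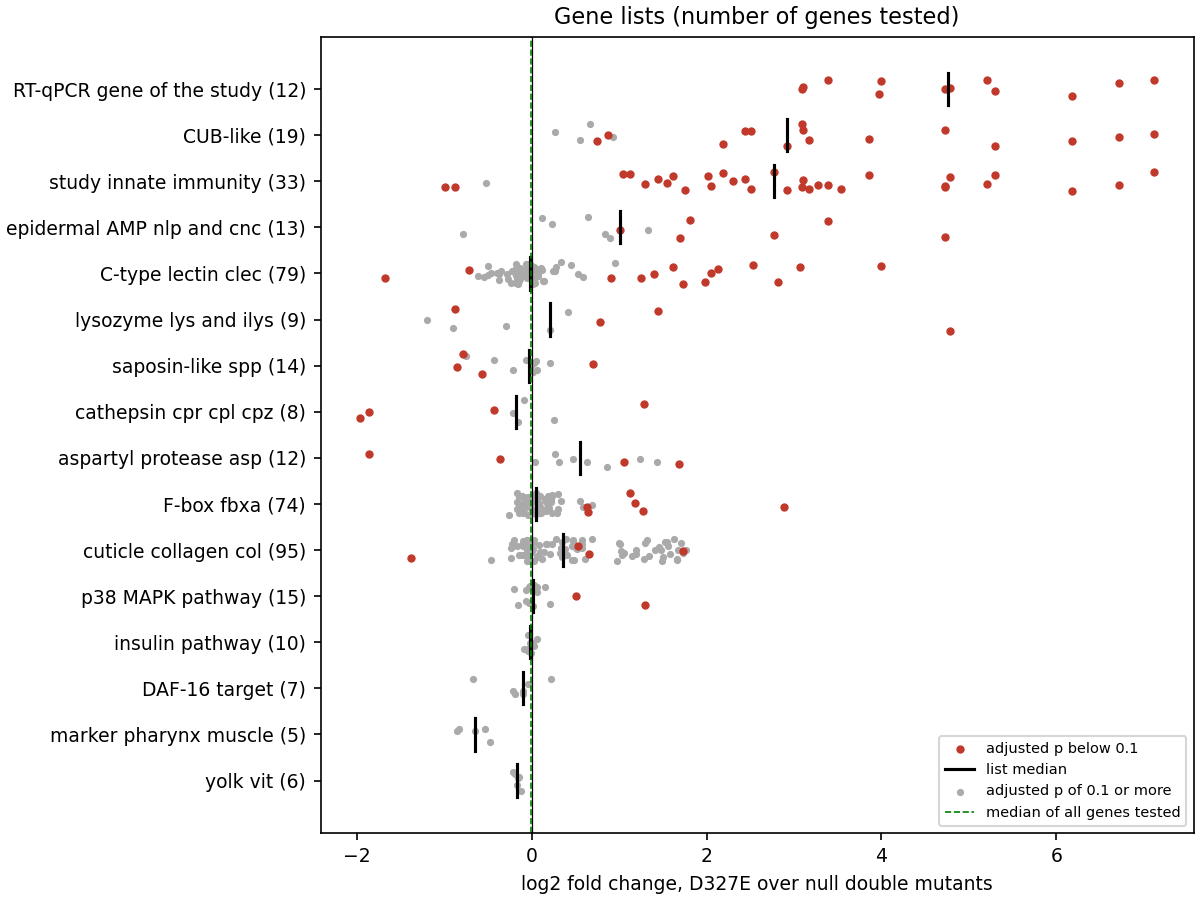
Log2 fold change of D327E over null double mutants for each tested member of 16 gene lists, with the number of genes tested in brackets. Red points passed an adjusted p of 0.1, grey points did not, black lines are list medians and the green dashed line is the median of all genes tested. The CUB-like list lies to the right with a median of 2.92, whereas the insulin pathway list sits at -0.02.

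Lists drawn up by the study were described in the same way. They were chosen by the study on the *daf-16* intact libraries of this series, so their direction here is not independent evidence. Of the 33 innate immunity genes 30 rose and 2 fell, with a median log2 fold change of 2.77, and the 2 that fell were *lys-5* and the thaumatin-like gene *thn-2*. *thn-2* was at 14.8, 11.105, 10.27 and 8.88 TPM in the D327E double mutants, against 29.7, 23.1, 21.9 and 18.5 TPM in the null double mutants (log2 fold change -0.99, standard error 0.17, limma, adjusted p = 0.00374). Of genes also assayed by RT-qPCR, 12 are in the table. All 12 rose, with a median of 4.76, and all were called within each allele alone. They include *catp-3*, an ion-transporting ATPase of the P type, at 24.0, 14.2, 19.9 and 12.1 TPM in the D327E double mutants against 0.391, 0.0302, 0.0974 and 0.0911 TPM in the null double mutants (115-fold by the means, log2 fold change 3.97, standard error 0.31, limma, adjusted p = 1.62e-06). Of 108 tested pmk-1-dependent genes of the study 62 rose and 12 fell.

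The list that the study assigned to the PVD sensory neuron, which detects harsh touch, had 38 tested members of 42, of which 26 rose and 3 fell, with a median log2 fold change of 1.73. The leading members were the immune genes *irg-5*, C17H12.8, *irg-4*, *dod-24*, *sysm-1* and *lys-2*, all of which also stand on the innate immunity list. *ugt-44*, a UDP-glucuronosyltransferase of the detoxification enzymes, was at 33.2, 34.7, 29.7 and 21.4 TPM in the D327E double mutants against 1.92, 1.60, 1.07 and 1.95 TPM in the null double mutants (log2 fold change 3.54, standard error 0.20, limma, adjusted p = 8.48e-08). The 3 that fell were the cathepsin B genes *cpr-1*, *cpr-4* and *cpr-5*. Independent PVD markers were nearly silent in whole animals, since none of 7, *mec-3* and *dma-1* among them, passed the filter, and their summed level was 3.21 to 3.83 TPM in D327E against 4.12 to 4.74 TPM in null double mutants, without overlap. Its part in the result of the list was not tested.

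Lysosomal proteases changed in both directions. Of 23 tested lysosomal genes of the study 8 rose and 5 fell, with a median log2 fold change of -0.11, and the replicate block gave 9 rises and 8 falls. The cathepsin B gene *cpr-1* was at 81.0, 63.2, 72.0 and 66.6 TPM in the D327E double mutants, against 284, 210.0, 325 and 304 TPM in the null double mutants, 3.98-fold higher in the null (log2 fold change -1.96, standard error 0.19, limma, adjusted p = 2.24e-05). Its paralog *cpr-4* was at 40.4, 48.8, 57.1 and 51.3 TPM, against 215, 155, 187 and 175 TPM (log2 fold change -1.87, standard error 0.24, limma, adjusted p = 0.000369). The D327E libraries of both were tightly grouped and well below those of the null. In contrast, *cpr-3* was at 13.9, 10.8, 9.61 and 8.83 TPM, against 4.298, 3.12, 3.65 and 4.17 TPM (log2 fold change 1.28, standard error 0.29, limma, adjusted p = 0.0356), a call lost without any 1 of 6 libraries. The most abundant cathepsin of the 3 that fell, *cpr-5*, changed little, with a log2 fold change of -0.43 (limma, adjusted p = 0.0632), and its call was lost without any 1 of the 8 libraries.

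Aspartyl proteases of the cathepsin D type had 2 rises and 2 falls among 12 tested. Their median log2 fold change was 0.55, 10 of the 12 fold changes were positive, and 8 genes had an unadjusted p below 0.05. The intestinal *asp-6* was at 1014, 937, 967 and 848 TPM in the D327E double mutants, against 483, 415, 487 and 426 TPM in the null double mutants (log2 fold change 1.055, standard error 0.18, limma, adjusted p = 0.00539). Its neighbour *asp-12* was at 9.25, 11.695, 8.46 and 8.32 TPM, against 1.92, 2.08, 2.07 and 2.95 TPM (log2 fold change 1.68, limma, adjusted p = 0.00846). The level of *asp-17* was 1.79 and 4.12 TPM with mgDf50 and 0.374 and 0.870 TPM with m26 in the D327E double mutants, against 38.3, 13.2, 2.09 and 2.73 TPM in the null double mutants, whose highest values came from mgDf50 (log2 fold change over both -1.86, limma, adjusted p = 0.0671), and the call was lost without any 1 of 6 libraries. The ubiquitous *asp-4* fell by 0.37 (limma, adjusted p = 0.012) and was not called in the fit of the 8 libraries alone. In the fit with the replicate block 7 aspartyl proteases rose and 2 fell. Saposin-like genes, whose products can permeabilize membranes, had 1 rise and 3 falls among 14, with *spp-18* at a log2 fold change of 0.70 and *spp-23*, *spp-4* and *spp-1* at -0.85, -0.78 and -0.58. The calls of *spp-23* and *spp-1* were lost without any 1 of 7 and 6 libraries. The replicate block gave 1 rise and 4 falls, and in the 8 libraries alone 1 rise and 6 falls.

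Further secreted or membrane enzymes rose. *pcp-2*, a lysosomal carboxypeptidase of the prolyl type, was at 40.5, 32.2, 35.4 and 26.8 TPM in the D327E double mutants, against 8.299, 6.78, 7.94 and 7.18 TPM in the null double mutants (log2 fold change 2.01, standard error 0.29, limma, adjusted p = 0.00091). The astacin metalloprotease gene *nas-11* was at 54.01, 47.1, 50.5 and 50.3 TPM, against 25.9, 19.6, 26.3 and 26.2 TPM (log2 fold change 1.02, standard error 0.14, limma, adjusted p = 0.000411). The spread within each side was small for both, and *nas-11* was the sole rise among 12 tested astacins, against 3 rises with the replicate block. *oac-20*, an acyltransferase-like gene, was at 7.28, 7.41, 5.44 and 5.78 TPM, against 0.560, 0.421, 0.463 and 0.560 TPM (log2 fold change 2.31, standard error 0.21, limma, adjusted p = 8.95e-06). Of the 12 tested genes that the study lists as extracellular, *nas-11* and the peptide genes *nlp-31*, *nlp-29* and *nlp-30* rose, and *cpr-1*, *cpr-4*, *cpr-5*, *asp-17*, *col-135* and *thn-2* fell.

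The largest fall was that of F56A4.3, which was listed at 0 in all 4 D327E double mutant libraries, against 12.19, 6.75, 10.97 and 8.13 TPM in the null double mutants (limma, adjusted p = 4.73e-09). It was also listed at 0 in wild type, *pmk-1(D327E)* and *daf-16(m26)*, at 14.8 and 11.45 TPM in *daf-16(mgDf50)*, and at 6.03, 5.501 and 6.82 TPM in *pmk-1(-)*, so presence of the transcript went by strain and not by the *pmk-1* allele alone. *fat-7*, a stearoyl-CoA desaturase of fatty acid synthesis, was at 147, 136, 195 and 139 TPM in the D327E double mutants, against 308, 336, 527 and 572 TPM in the null double mutants (log2 fold change -1.46, standard error 0.25, limma, adjusted p = 0.00535). The cuticle collagen *col-135* was at 11.47, 20.8, 22.7 and 26.5 TPM, against 41.02, 54.5, 56.8 and 60.4 TPM (log2 fold change -1.39, standard error 0.26, limma, adjusted p = 0.00886). Lower expressed falls were Y34F4.3 (log2 fold change -1.45), Y19D10B.4 (-1.08) and T24C2.5 (-0.90), all without overlap, of which T24C2.5 lost its call without any 1 of 5 libraries.

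The signalling genes themselves differed little. Of 15 tested genes of the p38 pathway and related factors 2 rose and none fell, and the median log2 fold change was 0.01. The related factors include *ced-3*, *ced-4*, *elt-2*, *hlh-30* and *zip-2*. The 2 that rose were *zip-2*, a bZIP factor of an infection response that runs beside the p38 pathway, and *vhp-1*, the phosphatase that switches off PMK-1 and related kinases. The *zip-2* level was 112, 84.1, 97.7 and 79.8 TPM in the D327E double mutants, against 51.8, 32.1, 35.4 and 32.2 TPM in the null double mutants (log2 fold change 1.29, standard error 0.22, limma, adjusted p = 0.00438). For *vhp-1* it was 14.1, 12.1, 11.29 and 11.57 TPM, against 9.21, 8.13, 7.24 and 8.75 TPM (log2 fold change 0.51, standard error 0.13, limma, adjusted p = 0.0854), and the call was lost without any 1 of the 8 libraries. Upstream, *tir-1*, *nsy-1* and *sek-1* had log2 fold changes of 0.01, -0.21 and -0.16, and the transcription factor genes *atf-7* and *skn-1* had 0.06 and 0.03. No call was made by limma among 10 insulin pathway genes or the 7 tested of 14 DAF-16 targets, with 0 of either at an unadjusted p below 0.05 and 0 called by limma without trend and robust estimation. Their median log2 fold changes were -0.02 and -0.10, with *daf-2* at -0.02, *akt-1* at -0.04 and *sod-3* at -0.22.

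Detoxification families had shares of called genes of 2.17% (46 UDP-glucuronosyltransferases, 1 rise) and 6.90% (29 glutathione S-transferases, 2 rises), against 1.78% of all genes tested. The 2 glutathione S-transferases that rose were *gst-22* and *gst-13*, with log2 fold changes of 1.54 and 1.04, and the call of *gst-13* was lost without any 1 of 4 libraries. None of 42 cytochrome P450 genes was called by limma with or without trend and robust estimation, with 5 at an unadjusted p below 0.05 and 1 fall with the replicate block. That block gave 2 rises of UDP-glucuronosyltransferases and 3 of glutathione S-transferases. In the 8 libraries alone with the block these were 6 and 5, and 2 cytochrome P450 genes rose and 1 fell. Of 74 fbxa genes, F-box adaptors of ubiquitin ligases, 6 rose (8.11%), led by *fbxa-192*, and 8 rose with the replicate block. The *fbxa-192* level was 26.8 and 29.6 TPM in *daf-16(mgDf50);pmk-1(D327E)* and 9.51 and 10.5 TPM in *daf-16(m26);pmk-1(D327E)*, against 1.46, 1.59, 1.38 and 1.30 TPM in the null double mutants (log2 fold change 2.88, standard error 0.23, limma, adjusted p = 1.62e-06). Both alleles showed the rise, although its D327E level was higher with mgDf50. Proteasome (32), V-ATPase (19) and msp sperm genes (29) had no call by limma with or without trend, and 0 at an unadjusted p below 0.05, and 1 of 75 ribosomal protein genes, *rpl-43*, fell (log2 fold change -0.49, limma, adjusted p = 0.0261). That fall came from *daf-16(mgDf50);pmk-1(-)*, at 3167 and 2799.9 TPM against 1312 to 1750.2 TPM in the other 6 double mutant libraries, and the call was lost without any 1 of 4 libraries.

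Markers of tissues were summed in each library to show whether tissue content moved with these groups. Pharynx muscle markers summed to 54.97 to 67.85 TPM in the D327E double mutants and to 83.6 to 100.9 TPM in the null double mutants, without overlap, and molt genes to 34.97 to 43.2 TPM against 30.8 to 33.8 TPM, also without overlap. The pharynx markers *tnc-2*, *tnt-4* and *tni-4* also stand on the study's pmk-1-dependent list. That list was chosen on libraries of this series, so the direction of these markers is not independent evidence. None of the 5 pharynx muscle or 6 tested molt genes was called by limma with or without trend, with 2 each at an unadjusted p below 0.05. In the fit of all genotypes with the replicate block 1 pharynx muscle marker fell and 1 molt gene rose, and in the 8 libraries alone with the block 4 of the 5 pharynx muscle markers fell and 2 molt genes rose. Epidermis markers summed to 88.6 to 89.4 TPM in the D327E and 83.7 to 89.4 TPM in the null double mutants, and adult cuticle markers to 2089 to 2479 TPM against 2005 to 2632 TPM. None of these 8 was called by limma. The collagens *rol-6*, *sqt-3* and *col-63*, with log2 fold changes of 0.98, 0.64 and 1.585, did not overlap between D327E and null and had an unadjusted p below 0.05. Among all 12843 genes tested 4.67% did not overlap, and 813 genes had an unadjusted p below 0.05. With the block 1 epidermis and 1 adult cuticle marker rose. The sums also overlapped for intestine (850 to 1290 against 765 to 1186 TPM), body muscle, germline, oocyte and yolk markers, and no marker of them was called or had an unadjusted p below 0.05. With mgDf50 the intestine sum was 1290 and 968.6 TPM in D327E replicates 1 and 2, against 1186 and 782.5 TPM in null. With m26 it was 1149 and 849.8 TPM against 966.2 and 764.8 TPM, so D327E was higher in each same-numbered pair. In the 8 libraries alone with the block 2 intestine markers rose and 3 of the 6 yolk genes fell. Cuticle collagen genes, expressed by the epidermis, had 3 rises and 1 fall among 95 tested (4.21%, against 1.78% of all genes tested). Their median log2 fold change was 0.35, and 28 had an unadjusted p below 0.05. In 18 of them every D327E library was above every null library and in 1 below, against 3.12% and 1.55% of all genes tested. With the replicate block 27 collagen genes rose and 1 fell. In the 8 libraries alone with the block 39 collagen genes rose and 3 fell. With *daf-16* intact their median was -0.02. What part the pharynx, molt, intestine, yolk and cuticle differences have in the other results was not tested.

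The rise and fall of these genes were compared between the *daf-16* alleles. In *daf-16(mgDf50)* 162 genes were called (1.26%), 138 higher and 24 lower, and in *daf-16(m26)* 96 genes (0.747%), 78 higher and 18 lower. With the replicate block these counts were 292 and 153. Of the 228 genes called over both alleles 224 had the same sign in each allele, and 75 passed the test in each allele alone. The median log2 fold change of the genes called higher was 1.33 with mgDf50 and 1.02 with m26, and that of the genes called lower was -0.83 and -0.66. The difference between alleles was itself called for 6 genes (0.0467%), with 178 at an unadjusted p below 0.05, and for 12 with the replicate block. Evenly spread p-values of the 12843 genes would put more than 178 below 0.05, so a missing call does not show equal differences. None of the immune lists held one of the 6.

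**Figure D3:**
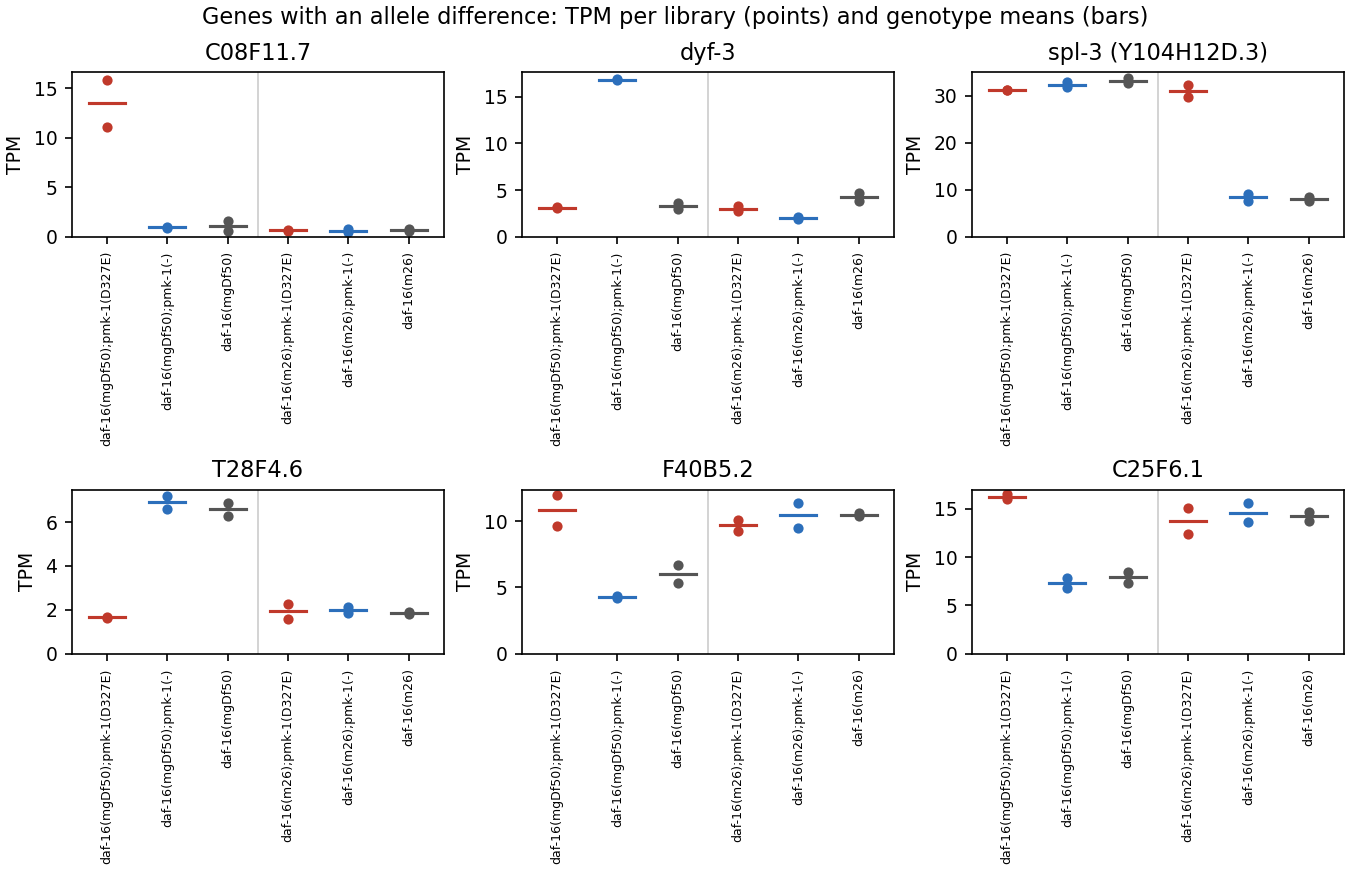
TPM of the 6 genes whose D327E against null difference depended on the *daf-16* allele, with D327E double mutants in red, null double mutants in blue and *daf-16* single mutants in grey. Points are libraries and horizontal lines genotype means, mgDf50 strains to the left of the divider and m26 strains to the right. In each panel 1 or 2 of the 6 genotypes stand apart from the others.

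In 4 of these 6 genes the level that stood apart was shared with a *daf-16* single mutant. *spl-3* (Y104H12D.3), a sphingosine phosphate lyase, was at 29.7 and 32.3 TPM in *daf-16(m26);pmk-1(D327E)* against 7.65 and 9.14 TPM in *daf-16(m26);pmk-1(-)*, and at 7.66 and 8.34 TPM in *daf-16(m26)*. T28F4.6 was at 1.68 and 1.64 TPM in *daf-16(mgDf50);pmk-1(D327E)* against 7.21 and 6.62 TPM in *daf-16(mgDf50);pmk-1(-)*, and at 6.28 and 6.88 TPM in *daf-16(mgDf50)*. F40B5.2 and C25F6.1, both on the X chromosome, were lower in *daf-16(mgDf50);pmk-1(-)* and *daf-16(mgDf50)* than in the other strains, and their allele differences lost the call without any 1 of 7 libraries. In the other 2 genes a single strain stood apart, C08F11.7 at 11.119 and 15.86 TPM in *daf-16(mgDf50);pmk-1(D327E)* and below 2 TPM elsewhere, and the ciliary gene *dyf-3* at 16.8 and 16.9 TPM in *daf-16(mgDf50);pmk-1(-)* and below 5 TPM elsewhere. All 6 are among the 228, and a difference particular to 1 strain cannot be told apart from one due to the alleles.

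With *daf-16* intact, the same contrast between *pmk-1(D327E)* and *pmk-1(-)* could be set beside that of the double mutants, since the 6 libraries are separate. There 139 genes were called (1.08%), 107 higher and 32 lower. Of the 228 genes called in the double mutants 224 (98.2%) had the same sign with *daf-16* intact, against 47.5% of all genes tested, and 113 were called there in the same direction. These are 49.6% of the 228, and 25 further genes were called only with *daf-16* intact. Without *pmk-1(-)* replicate 2 the *daf-16* intact count was 236, of which 41.9% were higher, against 77% with all libraries. For the innate immunity list both contrasts gave 30 rises and 2 falls, with medians of 2.77 in the double mutants and 2.52 with *daf-16* intact. The study chose that list on the *daf-16* intact libraries, so the 2 results are not independent evidence. Its pmk-1-dependent list, chosen likewise, holds the genes that follow. For *sysm-1* the log2 fold changes were 5.21 and 5.14, for *lys-2* 4.79 and 4.72, for *cpr-1* -1.96 and -2.22, and for *irg-5* 7.12 and 5.89.

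**Figure D4:**
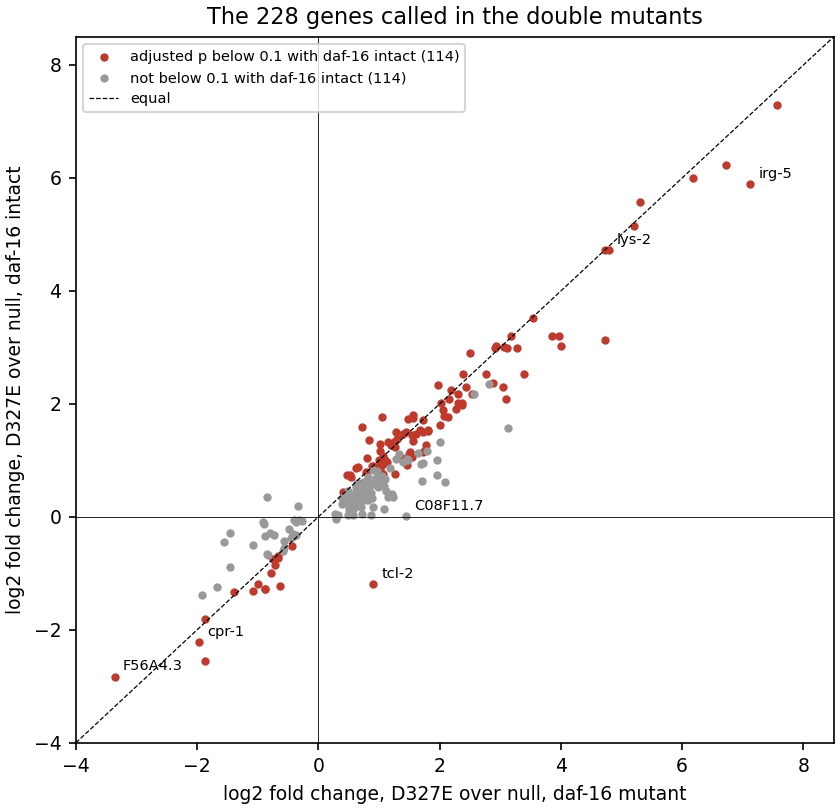
Log2 fold change of D327E over null in the *daf-16* double mutants (horizontal) and with *daf-16* intact (vertical) for the 228 genes called in the double mutants. Red points were also called with *daf-16* intact, and the dashed line marks equal values. Of the 228 points 224 have the same sign on both axes, and *tcl-2* is among those that do not.

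The difference between those contrasts, a test of whether D327E against null depends on *daf-16*, was called for 7 genes (0.0545%), with 173 at an unadjusted p below 0.05. Evenly spread p-values of the 12843 genes would put more than 173 below 0.05. A missing call therefore does not show that a difference is the same with and without *daf-16*. No gene of the innate immunity, lysosome or CUB-like lists was among them, while ZC317.7 is on the study's pmk-1-dependent list. For *irg-5*, whose 2 fold changes were the farthest apart of those just named, the difference was 1.23 on the log2 scale (limma, adjusted p = 0.95), so it was not distinguishable from 0. In 2 of the 7 the *daf-16* intact *pmk-1(D327E)* strain stood apart, *grd-15* at 14.7, 13.9 and 10.9 TPM there and below 1.5 TPM in every other library, and the galectin *lec-3* at 2.44, 2.26 and 2.93 TPM there and above 13 TPM elsewhere. ZC317.7 was at 6.304, 7.36 and 7.07 TPM in *pmk-1(D327E)* against 0.849, 1.28 and 2.90 TPM in *pmk-1(-)*, and did not differ in the double mutants beyond their spread. The level of *tcl-2* was higher in D327E than in null double mutants and lower in *pmk-1(D327E)* than in *pmk-1(-)*, and its call in the double mutants was lost without any 1 of 6 libraries. The other 3, C08F11.7, *dyf-3* and *spl-3*, are also among the 6 of the allele difference. The *daf-16* dependence itself lost its call without any 1 of 13 libraries of 14 for C08F11.7, 12 for *dyf-3*, 11 for ZC317.7, 8 for *tcl-2*, 4 for *lec-3* and 2 for *spl-3*.

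The *daf-16* single mutants, which have wild-type *pmk-1*, show on which side of the wild-type kinase each *pmk-1* mutant lies. Both comparisons share the single mutant libraries, so their values are given side by side only. Against the single mutants, 26 genes were called in the D327E double mutants (0.202%), 17 higher and 9 lower, and 123 in the null double mutants (0.958%), 13 higher and 110 lower. With the replicate block these counts were 52 and 399. The *sysm-1* level was 20.5, 24.5, 28.7 and 28.04 TPM in the single mutants, so that the D327E double mutants lay above them (log2 fold change 1.82, limma, adjusted p = 8.7e-05) and the null double mutants below (log2 fold change -3.38, limma, adjusted p = 5.3e-08). For *irg-5* the single mutants had 190.0, 71.3, 106 and 54.1 TPM, and the log2 fold changes were 1.97 (limma, adjusted p = 0.086) for D327E and -5.15 (limma, adjusted p = 5.1e-06) for null. *catp-3*, *ugt-44* and *cnc-4* also passed on both sides.

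Other genes differed from the single mutants on the null side alone by this test, which does not show that D327E equals the wild-type kinase. *nlp-29* was at 88.2, 27.3, 49.03 and 25.6 TPM in the single mutants, with a log2 fold change of 0.07 for D327E (limma, adjusted p = 1) and -3.33 for null (limma, adjusted p = 0.00089). The corresponding values of *lys-2* were 1.19 (limma, adjusted p = 0.66) and -3.59 (limma, adjusted p = 2.4e-05), and those of *irg-4* were 1.54 (limma, adjusted p = 0.26) and -4.63 (limma, adjusted p = 6.2e-06). Of the genes that fell, *cpr-1* was at 131, 152, 187 and 111 TPM in the single mutants, between the double mutants, and differed by -1.01 for D327E (limma, adjusted p = 0.067) and 0.95 for null (limma, adjusted p = 0.032). *fat-7* was at 118, 146, 222.8 and 220.7 TPM in them and differed by -0.16 for D327E (limma, adjusted p = 1) and 1.30 for null (limma, adjusted p = 0.024).

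**Figure D5:**
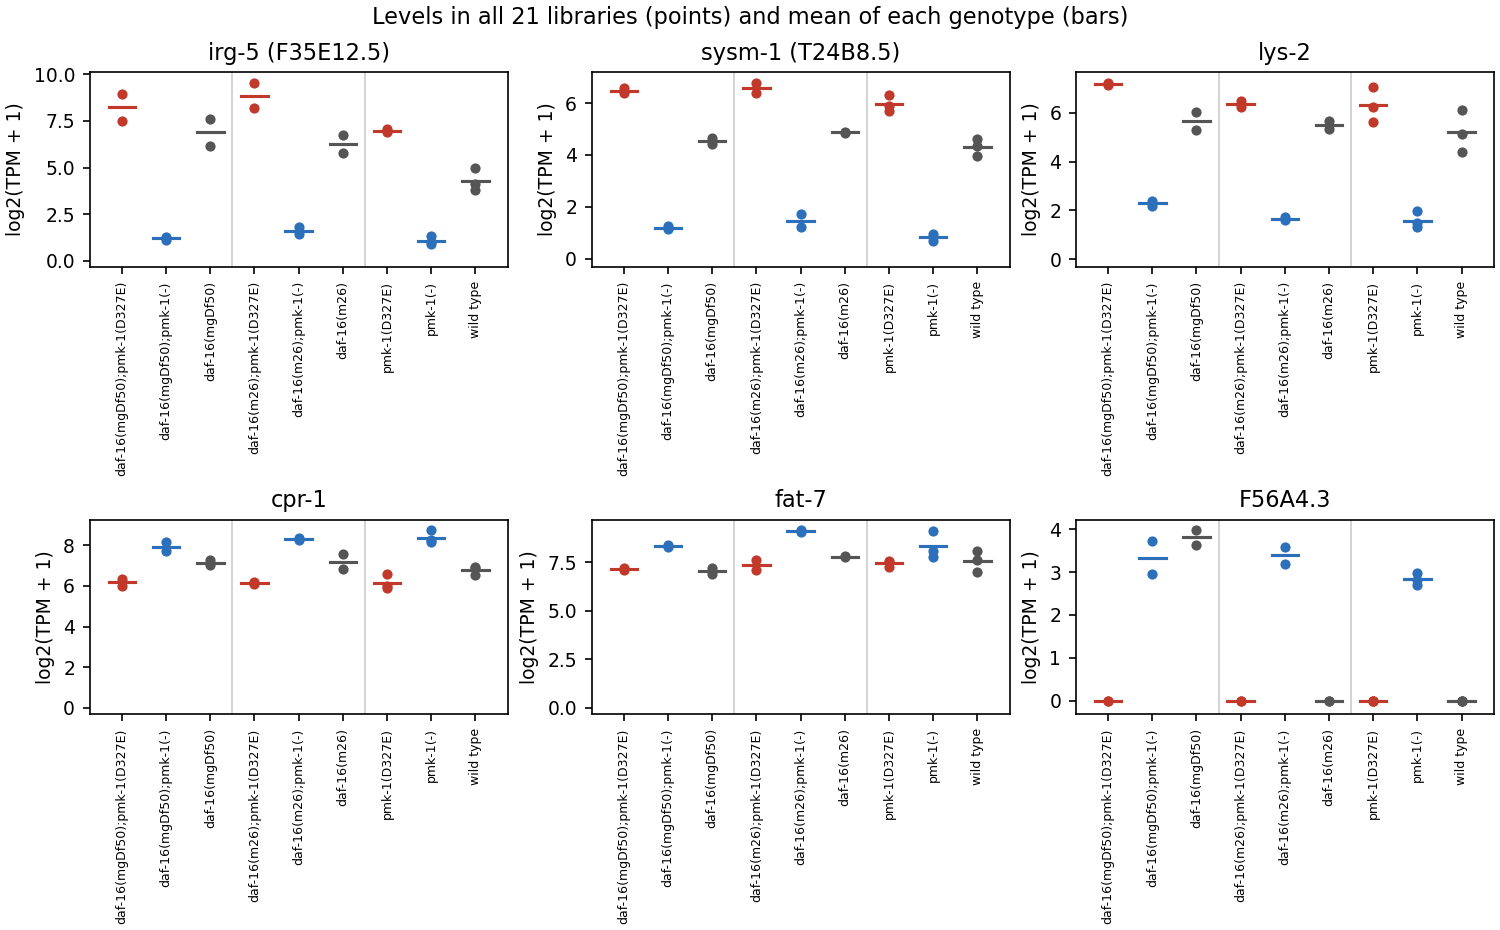
Levels of *irg-5*, *sysm-1*, *lys-2*, *cpr-1*, *fat-7* and F56A4.3 as log2(TPM + 1) in all 21 libraries, in 3 blocks of D327E (red), null (blue) and wild-type *pmk-1* (grey) with *daf-16(mgDf50)*, *daf-16(m26)* and intact *daf-16*. Points are libraries and horizontal lines genotype means. In each block *irg-5*, *sysm-1* and *lys-2* are highest in D327E and lowest in null, and *cpr-1* shows the reverse.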

How the data were processed

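Poly-A RNA of whole animals was sequenced with a stranded kit. The authors deposited 1 table of TPM values for 22840 genes in 21 libraries. According to the study's methods and the submitters' processing notes, reads were trimmed, aligned with STAR to ce10, stripped of duplicates with Picard and counted per RefSeq gene with featureCounts. The processing notes give STAR 2.5.3a and Picard 2.10, whereas the study's reporting names another STAR version. Removing duplicates can flatten very abundant genes. No table of read counts was used here. Deposited tables of the authors' own edgeR comparisons hold their fold changes and p-values and were not used.

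Values were tested as log2(TPM + 1) for the 12843 genes whose mean reached 1 TPM, with limma 3.58.1 (trend and robust) in R 4.3.3, 1 mean per genotype, and contrasts averaged over the *daf-16* alleles. Calls were made at a Benjamini-Hochberg adjusted p below 0.1 over all genes tested. Fits were tested on simulated data in which the libraries varied independently, so the simulation does not cover libraries that deviate together. Same-numbered libraries of the 4 double mutants deviated together (correlations 0.489 to 0.699) and likewise over the 6 *daf-16* mutant genotypes (0.344 to 0.759), but not in *pmk-1(D327E)* and *pmk-1(-)* (-0.317, 0.705 and 0.372), so the replicate number was taken to pair the *daf-16* mutants only. The block fitted to all genotypes nevertheless applies to every library. Both *daf-16(mgDf50);pmk-1(-)* titles say replicate 1, and the library whose bracketed name ends in 2 was taken as replicate 2. Alternatives changed the pseudocount, filter, centring, threshold, trend, libraries fitted and block. The alternatives run on the comparisons with the *daf-16* single mutants and on the gene lists were chosen after seeing the data.

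Members and lists were chosen with earlier results of these data known. Named genes are the *pmk-1* and *daf-16* controls, the 12 largest rises and falls among called genes without overlap, up to 4 called members of each list with the largest change, the RT-qPCR genes, and up to 5 genes called for the allele and the *daf-16* difference. Other genes given with values were chosen after these were seen. T24B8.5 was taken off the CUB-like list after its values were seen, because it encodes a ShK-like peptide. Gene names, chromosomes and neighbours come from RefSeq on WBcel235, in which 12611 of the 12843 genes were matched, and no coordinates are given because the builds differ. Primer sequences come from the study's supplementary table. Promoter motifs and the PMK-1 protein sequence are not analysed here.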

Additional observations from a re-analysis of the deposited data

Results flagged for a closer look

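The difference between D327E and null depended on the *daf-16* allele, by limma's test of that difference, in 6 genes, given here as mgDf50 minus m26 on the log2 scale. It was 2.87 for C08F11.7 (limma, adjusted p = 0.000879) and -2.55 for *dyf-3* (limma, adjusted p = 0.000675). It was -1.82 for Y104H12D.3 (*spl-3*; limma, adjusted p = 5.44e-05) and -1.54 for T28F4.6 (limma, adjusted p = 0.00577). It was 1.25 for F40B5.2 (limma, adjusted p = 0.0773) and 1.14 for C25F6.1 (limma, adjusted p = 0.0718). The calls of F40B5.2 and C25F6.1 were lost without any 1 of 7 libraries. For C08F11.7, *dyf-3*, Y104H12D.3 and T28F4.6 the call over both alleles was lost in an additive fit of the 8 libraries.

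The difference between D327E and null depended on *daf-16* in 7 genes, given as double mutants minus *daf-16* intact. It was -3.202 for *grd-15* (limma, adjusted p = 0.00363), 2.80 for *lec-3* (limma, adjusted p = 0.026), 2.09 for *tcl-2* (limma, adjusted p = 0.0439) and -1.77 for ZC317.7 (limma, adjusted p = 0.0486). For C08F11.7 it was 1.43 (limma, adjusted p = 0.0543), for *dyf-3* -1.21 (limma, adjusted p = 0.0543) and for Y104H12D.3 0.82 (limma, adjusted p = 0.0203). These calls were lost without any 1 of 13 libraries of 14 for C08F11.7, 12 for *dyf-3*, 11 for ZC317.7, 8 for *tcl-2*, 4 for *lec-3* and 2 for Y104H12D.3. Like *pmk-1*, *dyf-3*, C08F11.7, Y104H12D.3 and *tcl-2* lie on chromosome IV, which holds 18.7% of the genes tested. The others lie elsewhere, *grd-15* on I, *lec-3* on II and ZC317.7 on V.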

How the results depend on the processing

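Only the named genes were followed over the alternatives. Among them no called fold change reversed its sign, and those of *daf-16* and *lec-3* over both alleles, near 0 and not called, changed sign. A minimum of 5 TPM left 143 genes called over both alleles, 101 in mgDf50, 1 for the allele difference, 4 for the dependence on *daf-16*, and 12 and 74 for the D327E and null double against the single mutants. Without a filter the last 4 counts were 20, 12, 44 and 186, counting from the allele difference. A pseudocount of 0.1 gave 3 genes for the dependence on *daf-16* and 16 for D327E against single mutants. With the replicate block the counts were 491 over both alleles, 292 in mgDf50, 153 in m26, 12 for the allele difference, 52 and 399 against single mutants, and, where numbers do not pair the libraries, 268 with *daf-16* intact (59.7% higher, against 77%) and 11 for the dependence. In the 8 double mutant libraries alone the allele difference called 1 gene, and with the replicate block 775, 570, 337 and 11 genes were called over both alleles, in mgDf50, in m26 and for the allele difference. A fit of the 6 *daf-16* intact libraries called 51 (90.2% higher).

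Leaving out 1 library at a time gave 154 to 194 genes over both alleles, 68 to 110 in mgDf50, 38 to 50 in m26, 4 to 6 for the allele difference, 1 to 6 for the dependence, 82 to 236 with *daf-16* intact, and 14 to 27 and 71 to 318 for D327E and null against single mutants. The lone library left is assumed to vary like the other genotypes. Counts moved by over 1.5 times in mgDf50 without D327E replicate 1 (82) or 2 (98) or null replicate 2 (68), and in m26 without any 1 of its 4 libraries. With *daf-16* intact they did so without *pmk-1(-)* replicate 2 (236) or *pmk-1(D327E)* replicate 1 (82) or 3 (89). The null against single count was 318 without mgDf50 replicate 2 and 71 to 77 without mgDf50 replicate 1, m26 replicate 1 or replicate 2 of either null double mutant. The D327E against single count was 14 to 17 without any 1 of the 4 D327E double mutant libraries, mgDf50 replicate 2 or m26 replicate 1. The dependence count was 1 to 4 without any 1 of the *pmk-1(D327E)*, *daf-16(m26);pmk-1(D327E)* and null double mutant libraries or *pmk-1(-)* replicate 2. The share of higher calls over these fits was 41.9% to 87.5% with *daf-16* intact (77%) and 0% to 83.3% for the dependence (57.1%). The cause of these changes was not tested. Read depth is unknown, so no limit from counting can be given.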

Other observations

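Genes called in either direction lay unevenly over the genome. Of the falls with a chromosome, 34.1% were on V, 26.8% on IV and 9.76% on I. Of the rises with a chromosome, 33.3% were on V and 31.7% on IV, which hold 17.8% and 18.7% of the genes tested, while I held 3.28% of the rises and 17% of the genes tested. In 21 runs of neighbours, with at most 2 other protein-coding genes between them, stood 57 of the 178 protein-coding genes that rose, and no run was found among the 36 that fell. How many runs other gene sets of these sizes hold was not determined. The smaller set offers fewer neighbours, so the 2 directions cannot be compared by these counts. The longest run was F55G11.8, *dod-22*, F55G11.2, F55G11.4 and *dod-17* on chromosome IV, CUB-like genes with no gene between them that did not rise. Other runs held the peptide genes *nlp-34*, *nlp-31*, *nlp-30* and *nlp-29* on V, the lectins *clec-62*, *clec-63*, *clec-65* and *clec-66* on II, and the pairs *lys-1* and *lys-2*, *asp-6* and *asp-12*, and *cnc-4* and *cnc-3*.

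Of 282 tested piRNA loci, which the table names 21ur, 3 rose and 2 fell, a share of 1.77% beside 1.78% of all genes tested, and 5 rose and 3 fell with the replicate block. In the 8 libraries alone with the block 13 rose and 6 fell. The largest rise of all genes was that of *21ur-13425*, at 286, 229, 170.3 and 114 TPM in the D327E double mutants and listed at 0 in all 4 null libraries. It is 21 bases long and lies inside C17H12.8. Likewise *21ur-15387* lies inside *mbug-1* (F55G11.4) and was at 121.8, 113.8, 124.3 and 112.2 TPM in the D327E double mutants against 20.9, 20.1, 28.6 and 18.7 TPM in the null double mutants. Of the falls, *21ur-15141* lies in no protein-coding gene and was listed at 0 in all 4 D327E libraries, against 1.31, 3.095, 2.72 and 4.67 TPM in the null double mutants. Reads of the enclosed loci and of the genes around them cannot be told apart in this table. The libraries were made from poly-A RNA and TPM is scaled for gene length, so these values do not show a change of the piRNAs themselves.

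Of 152 nuclear hormone receptors 4 rose (2.63%, against 1.78% of all genes tested), led by *nhr-74* with a log2 fold change of 1.099, and 8 rose and 1 fell with the replicate block. In the 8 libraries alone that block gave 7 rises and 4 falls. Of 7 tested oac acyltransferase-like genes 2 rose, *oac-20* and *oac-6* with 2.31 and 1.40. Of 16 heat shock genes *hsp-17* rose by 0.83, a call lost under 9 alternatives. No yolk gene was called, with 0 at an unadjusted p below 0.05 and 0 by limma without trend and robust estimation, and their log2 fold changes were -0.22 to -0.12. In the 8 libraries alone with the replicate block 3 of the 6 fell.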
